A study of Mus musculus with 6 samples.

Results

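The cytosolic ribosomal protein genes were followed in mouse cortical neurons over 6 h of depolarization. Members were taken as the protein-coding genes whose symbol is Rpl or Rps followed by a digit, together with Rpsa and Rplp0 to Rplp2. Genes named as pseudogenes and the kinases that phosphorylate ribosomal protein S6 were left out. This choice of names gave 86 genes of the 43432 genes listed in each library, of which 21474 were protein coding. The small subunit was represented by 33 genes and the large subunit by 52. The remaining gene, Rps19bp1, carries the name but encodes a binding partner of Rps19 and not a ribosomal protein. Members lay on 19 chromosomes, with 14 on chromosome 7 and 4 on the X chromosome.

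The study stimulated cultured neurons with potassium chloride (KCl), which depolarizes the membrane and lets calcium in, and profiled their poly(A) RNA by RNA-seq. Cortices of wild-type C57BL/6 embryos at E16.5, male and female pooled, were dissociated and grown for 7 days in vitro. All groups, the 0 h group included, were silenced overnight with 1 µM tetrodotoxin (TTX), a sodium channel blocker, and 100 µM DL-AP5, an NMDA receptor blocker. Cells were then collected without stimulation (0 h) or after exposure to KCl at 55 mM for 2 h or for 6 h, and each group had 2 libraries, 6 in all. The duplicates are described as biological, but no source used here says that they came from separate cultures, so the p-values measure the spread between these libraries, which may be partly technical. The culture is a mixture of cells, and in bulk RNA a lower level cannot be assigned to fewer cells of a type or to less RNA in each cell.

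Each library held between 25959298 and 28573067 expected counts, the read numbers estimated per gene. The 12 neuronal markers were all detected, at a summed level of 6094 to 6634 TPM, a relative abundance corrected for transcript length. The 17 glial markers summed to between 536 and 700.5 TPM, lowest in both 6 h libraries, and the 8 vascular markers, of which up to 2 were at 0, to between 2.63 and 3.71 TPM. The 10 progenitor and dividing cell markers summed to 420 and 455 TPM in the 0 h libraries and to 718.5 and 721 TPM in the 6 h libraries. Such a sum is weighted towards its most abundant genes. Singly, 3 of the 10 were higher and 2 lower at 6 h than at 0 h (DESeq2, adjusted p at most 0.05). The 2 h libraries were the least alike pair. Over 12290 genes their log2 ratio had a standard deviation of 0.44, against 0.26 for the 0 h pair and 0.22 for the 6 h pair, and its rho with GC content was -0.73, against -0.39 and -0.28.

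Ribosomal proteins are made in equimolar amounts to build the small and large subunits, and their genes are among the most heavily transcribed in any cell. Vertebrate ribosomal protein mRNAs usually begin with a C followed by an uninterrupted run of pyrimidines, the 5′ terminal oligopyrimidine (TOP) tract, through which the TOR kinase controls their translation. In neurons, activity is known to engage TOR signalling and protein synthesis at synapses. The abundance of an mRNA measured by RNA-seq does not show how well it is translated.

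Start-site windows show the sequence feature that the family shares. RefSeq windows of 300 bases on GRCm38.p6 were matched for 66 of the 86 members. A C followed by at least 5 further C or T on the sense strand, starting within 20 bases before to 30 bases after the annotated start, was present for 51 of these 66 members (77.3%) and for 39.0% of the 27025 genes in the table. A C at the annotated start itself, followed by at least 4 further C or T, was present for 14 members (21.2%), against 3.01% of all genes, and some of these runs begin before the start. The sequence CCGGAAG on either strand was present in 39.4% of members and 9.93% of all genes, and AAGATGG in 15.2% and 7.28%. The reverse complement of CCGGAAG can share bases with a pyrimidine tract. The following windows run from 10 bases before to 19 bases after the annotated start and are shown for members described in detail, 6 of them chosen because a tract spans the start and 4 because they hold none in these 30 bases. Tracts of C and at least 5 pyrimidines are in capitals, and a tract that continues past a window is cut at its edge.
Rps6 (chr4:86857348-86857377, minus strand): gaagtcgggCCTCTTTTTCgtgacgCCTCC
Rpl38 (chr11:114668570-114668599, plus strand): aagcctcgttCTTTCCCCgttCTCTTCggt
Rplp2 (chr7:141447641-141447670, plus strand): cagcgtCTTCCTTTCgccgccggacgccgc
Rps18 (chr17:33955646-33955675, minus strand): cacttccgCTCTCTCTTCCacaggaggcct
Rps27 (chr3:90213629-90213658, minus strand): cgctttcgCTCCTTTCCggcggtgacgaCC
Rps27rt (chr9:114982720-114982749, minus strand): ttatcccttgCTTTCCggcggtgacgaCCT
Rpl5 (chr5:107900518-107900547, plus strand): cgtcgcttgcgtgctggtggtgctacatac
Rpl41 (chr10:128549149-128549178, minus strand): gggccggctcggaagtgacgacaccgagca
Rplp0 (chr5:115559457-115559486, plus strand): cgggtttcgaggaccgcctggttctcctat
Rpl7l1 (chr17:46782637-46782666, minus strand): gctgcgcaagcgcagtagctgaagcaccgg
The windows of Rpl10, Rpl22, Rpl26, Rpl27, Rpl36a, Rps4x and Rps15 held no such tract either, so that its absence from these 30 bases was not particular to any of them. Rpl5, Rpl26, Rpl36a and Rps15 have a tract that starts elsewhere between 20 bases before and 30 bases after the start, and are among the 51 members counted above.

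To compare levels between genes, TPM was used. The members together made up 8.19% and 8.24% of TPM at 0 h, then 8.15% and 9.32% at 2 h, and 8.14% and 8.22% at 6 h. As a share of expected counts they took 1.82% and 1.98%, 1.91% and 2.27%, and 1.83% and 1.84%. Only replicate 2 of the 2 h group stood above the other libraries on both scales. Without Rps27, whose TPM is described further on, the first 0 h library was at 7.43% of TPM.

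Single members spanned a wide range. Mean TPM over the 6 libraries was above 1000 for 36 members, between 100 and 1000 for 42 and under 100 for 8, with a median of 872 over the 83 members that were tested. The highest was Rps27rt at 4287 TPM, a value that rests on how reads were divided with the near-identical Rps27 and on a mean effective length of 58.0 bases. It was followed by Rps24 at 3644, Rpl26 at 3322, Rpl23a at 2541 and Rps15 at 2370. Rps24 was at 3191 and 3683 TPM at 0 h, then 3580 and 3911 at 2 h, and 3871 and 3628 at 6 h, and the groups overlapped. Rpl26 was at 2904 and 3122, 3089 and 3650, and 3762 and 3403 TPM. For Rpl23a the values were 2153 and 2557, 2398 and 2936, and 2548 and 2655 TPM. These genes encode proteins that every ribosome carries, and Rps27rt, Rps24, Rpl26 and Rpl23a had this order in all 6 libraries, while Rps15 was above Rpl23a in 2 h replicate 2. At the low end of the tested members were Rpl12 at 17.8 TPM, Rpl7l1 at 47.6, Rps19bp1 at 62.4, Rpl5 at 76.0 and Rpl27 at 82.0. Rpl12, Rpl5 and Rpl27 had near-identical copies that took most of their reads.

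**Figure D1:**
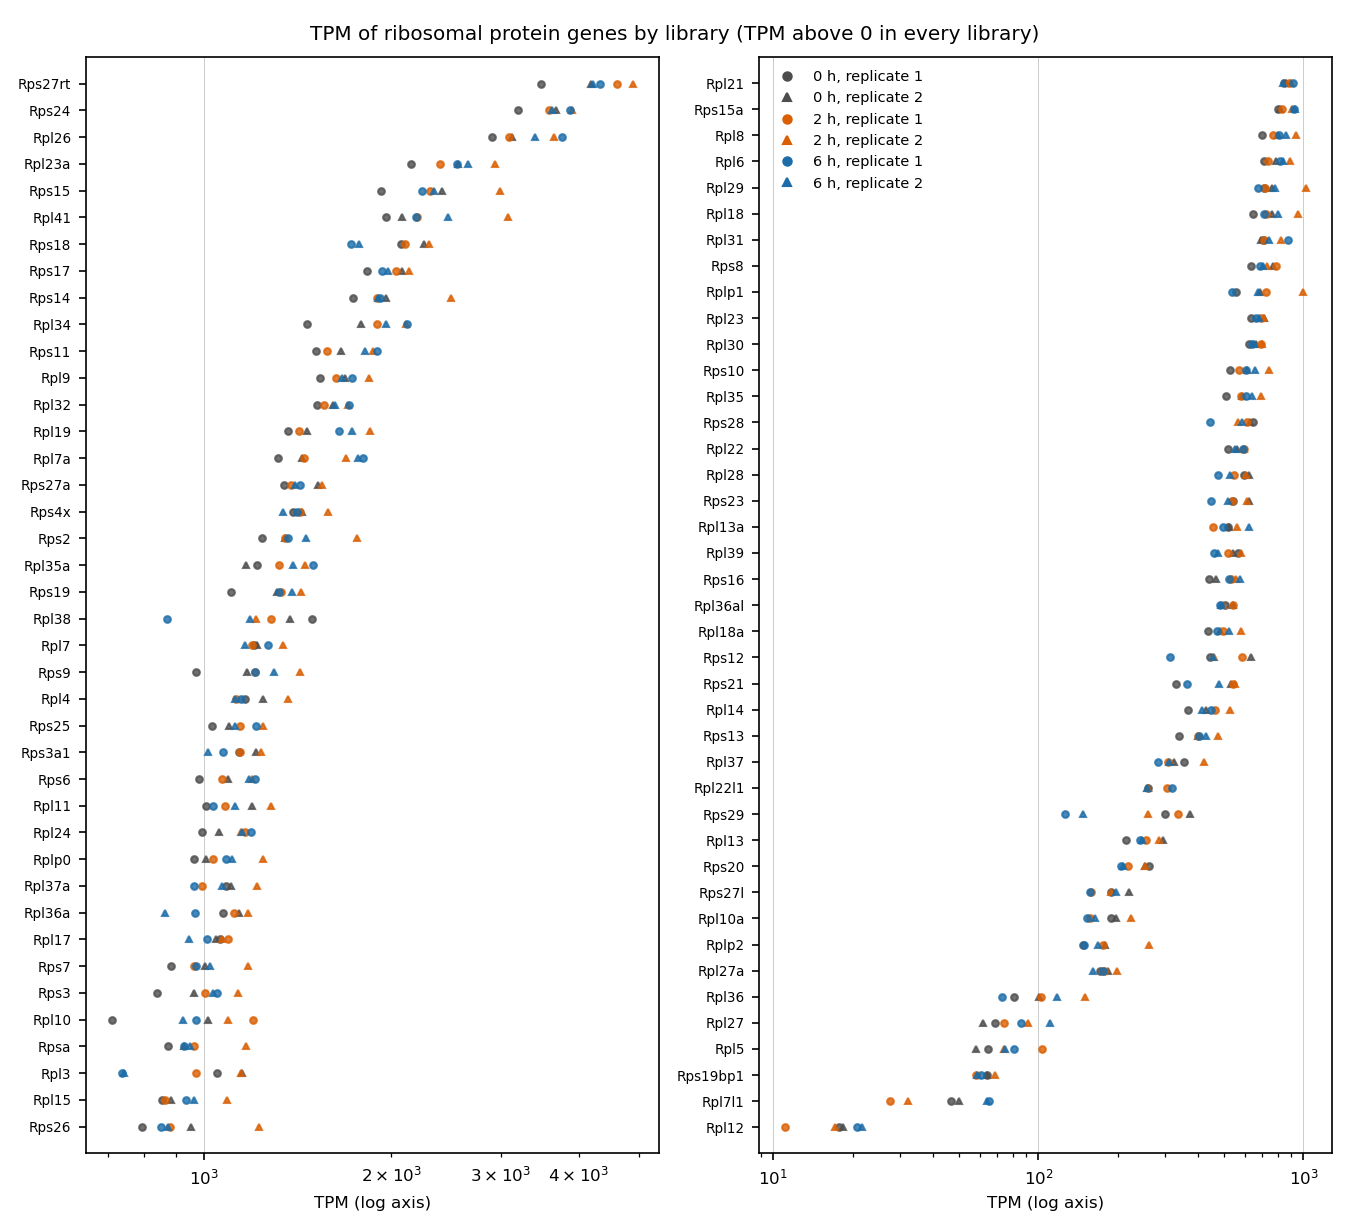
TPM on a log axis for 81 of the 82 members with TPM above 0 in every library (1 is not shown), in order of mean TPM, with 1 symbol per library (grey, 0 h; orange, 2 h; blue, 6 h; circle, replicate 1; triangle, replicate 2). Most members lie within a narrow band in all libraries, Rps29 is separated at 6 h, Rpl7l1 is lowest at 2 h, and the second 2 h library is the highest for 48 of the 83 tested members.

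The comparison of 2 h with 0 h asked how the family stood in the early phase of the response. Of the 83 members tested, 33 rose and 1 fell at an adjusted p of at most 0.05 (DESeq2). The changes were small, with a median log2 fold change of 0.29, or 1.22-fold. Among all 16840 genes tested, 12.3% rose and 14.2% fell, and the median log2 fold change was 0.02. No member passed the further condition of a log2 fold change beyond 1 or -1, against 3.62% of all genes higher and 5.94% lower. At an unadjusted p under 0.05, 51 members were higher and 1 lower, against 16.9% and 17.8% of all genes. Both 2 h libraries lay above both 0 h libraries for 67 members, against 31.5% of all genes, and below them for 1, against 31.1%. Abundant genes were shifted in the same direction: over the 5288 genes with a mean normalised count of at least 1000, of which 72 were members, the median was 0.14 and 24.3% rose.

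This count was sensitive to single libraries and to the scaling. It was 1 without 0 h replicate 1, 4 without 0 h replicate 2, 60 without 2 h replicate 1, 25 without 2 h replicate 2 and 12 without either 6 h library. With library totals as size factors, 1 member rose and 1 fell, the median of the members was 0.13 and that of all genes was -0.15, so that the members stood 0.28 above all genes on that scale and 0.28 above them on the main one. The largest normalised count was in 2 h replicate 2 for 58 of the 83 members, against 22.4% of all genes, the library that also differed from its replicate in GC content, and the part of this in the result was not tested. With a correction for GC content, 59 members rose and 1 fell, while 18.7% of all genes rose and 16.1% fell, and the median of the members was 0.296, against 0.292 without it.

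The P stalk proteins bind elongation factors at the large subunit, and all 3 of their genes rose at 2 h. Rplp1 had normalised counts of 1528 and 1750 at 0 h, then 2057 and 2871 at 2 h, and 1515 and 1891 at 6 h. Both 2 h libraries were above all others, and the 0 h and 6 h libraries overlapped. Its log2 fold change at 2 h was 0.59 ± 0.20 (SE; adjusted p = 0.0185, DESeq2), and it fell by 0.53 ± 0.20 from 2 h to 6 h (adjusted p = 0.0227). Rplp2 followed the same course, with counts of 435 and 546, 664 and 797, and 505 and 573. It rose by 0.57 ± 0.19 on the log2 scale at 2 h (adjusted p = 0.0138, DESeq2), while the change from 2 h to 6 h, -0.44 ± 0.19, did not pass (adjusted p = 0.051). Rplp0, the anchor of the stalk, was at 12732 and 13912, 16400 and 20197, and 16864 and 17043. It rose by 0.46 ± 0.14 at 2 h (adjusted p = 0.00501) and by 0.35 ± 0.14 at 6 h (adjusted p = 0.0279, DESeq2). Without 2 h replicate 2, the 2 h change of Rplp1 was 0.31 and did not pass (adjusted p = 0.0923). Without 0 h replicate 1 it was 0.50 with an adjusted p of 0.27, and without 0 h replicate 2 it was 0.70 with an adjusted p of 0.0753. Its fall from 2 h to 6 h had an adjusted p of 0.138 without 2 h replicate 2 and 0.269 without 6 h replicate 1. For Rplp2 the adjusted p at 2 h was 0.348 without 0 h replicate 1, 0.115 without 2 h replicate 2, and 0.0564 and 0.0576 without 6 h replicate 1 and 2. For Rplp0 it was 0.215 and 0.0651 without 0 h replicate 1 and 2, and the 6 h call was lost without any 0 h or 6 h library, with adjusted p from 0.11 to 0.292.

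Within the large subunit, 17 of 49 tested members rose at 2 h and 1 fell, with a median log2 fold change of 0.29. Rpl5, which carries 5S rRNA into the ribosome together with Rpl11, had the highest value of all members. Its counts were 1366 and 1226 at 0 h, then 2705 and 1845 at 2 h, and 1937 and 1748 at 6 h, with no overlap between the 0 h libraries and any later one. It rose 1.76-fold at 2 h (log2 0.81 ± 0.20, adjusted p = 0.000457, DESeq2), and near-identical copies took most of its reads. Rpl41, the shortest ribosomal protein, was at 6651 and 7009, 8489 and 11891, and 8323 and 9263, and rose by 0.58 ± 0.18 (adjusted p = 0.0066). Rpl10, which joins the large subunit late in its assembly, was at 3979 and 5275, 7090 and 6350, and 5836 and 5474, and rose by 0.54 ± 0.16 (adjusted p = 0.00606). Near-identical copies took most reads of Rpl10 as well. Rpl11, the partner of Rpl5, did not pass (0.29, adjusted p = 0.077), although both its 2 h libraries were above both 0 h libraries, and is named here as the partner of Rpl5, after its values were seen. Without 0 h replicate 1 the adjusted p was 0.146 for Rpl41 and 0.236 for Rpl10. Without 0 h replicate 2 it was 0.0795 for Rpl41 and 0.0512 for Rpl5. For Rpl10 it was 0.184 without 2 h replicate 1 and 0.0579 without 2 h replicate 2.

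In the small subunit, 16 of 33 members rose at 2 h and none fell, with the same median of 0.29. Rps6, whose protein is the substrate of S6 kinase, was at 8028 and 8688, 9696 and 10721, and 10904 and 10514. These are mRNA counts, which do not measure the activity of TOR or of S6 kinase. Every KCl library exceeded both 0 h libraries, and Rps6 rose by 0.29 ± 0.11 at 2 h (adjusted p = 0.0362, DESeq2) and by 0.36 ± 0.11 at 6 h (adjusted p = 0.00372). The lowest passing changes at 2 h were those of Rps4x (0.26, adjusted p = 0.0489), Rps15a (0.27, adjusted p = 0.0165) and Rpl30 (0.27, adjusted p = 0.0378), besides Rpl7l1, the gene that fell. These calls were lost without any 0 h or 6 h library, with adjusted p from 0.184 to 0.546. For Rps6 the same omissions gave adjusted p of 0.185 to 0.493 for the 2 h change and of 0.0631 to 0.194 for the 6 h change.

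**Figure D2:**
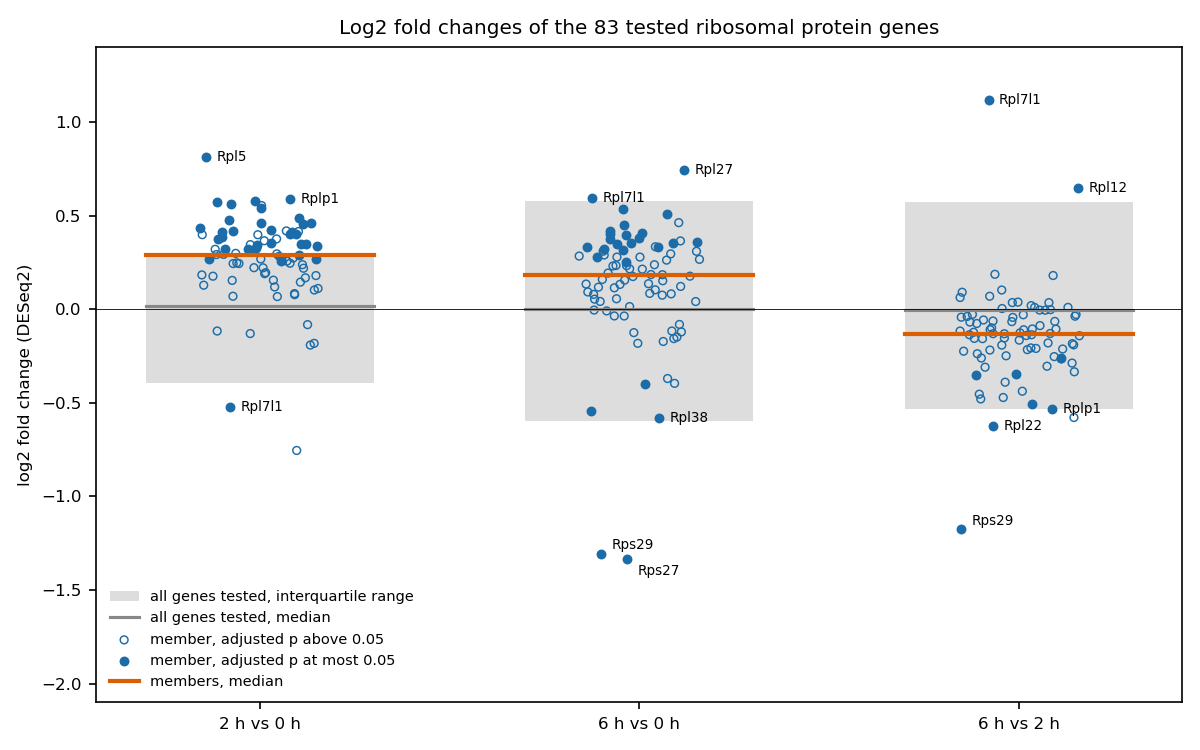
Log2 fold changes of the 83 tested members in each comparison (filled, adjusted p at most 0.05; open, above), with the median of the members (orange), and the median (grey line) and interquartile range (grey band) of all genes tested. The median of the members is 0.29 at 2 h and 0.18 at 6 h against 0 h, and -0.13 for 6 h against 2 h.

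The comparison of 6 h with 0 h addressed the late phase and shares its 0 h libraries with the one before. Here 21 members rose and 5 fell (DESeq2, adjusted p at most 0.05), with 23.7% of all 17277 genes tested higher and 21.7% lower, so that the share of members that rose, 25.3%, was near that of all genes and the share that fell, 6.02%, was lower. Their median log2 fold change was 0.18, against 0.00044 for all genes and 0.21 for the genes with a mean normalised count of at least 1000. Of those abundant genes 42.5% rose and 19% fell, larger shares than among the members. Both 6 h libraries were above both 0 h libraries for 55 members (all genes, 40.9%) and below them for 12 (all genes, 39.6%). No member was more than 1 log2 unit higher (all genes, 9.1%) and 2 were more than 1 unit lower (all genes, 10.2%). With TMM factors 14 members rose, and with edgeR 18. With library totals as size factors, 2 members rose and 13 fell, and the median was -0.06 where that of all genes was -0.25. The number that rose was 3 without 0 h replicate 1, 6 without 0 h replicate 2, 43 without 2 h replicate 1, 42 without 2 h replicate 2, 4 without 6 h replicate 1 and 2 without 6 h replicate 2. Without either 0 h replicate 1 or 6 h replicate 1, 2 members fell.

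Among the members that passed, Rpl27, Rpl7l1, Rpl7a, Rpl5 and Rpl13a had the highest log2 fold changes at 6 h. Rpl7a, a core protein of the large subunit, was at 11422 and 12105 at 0 h, then 13950 and 16154 at 2 h, and 17310 and 16787 at 6 h. Its groups did not overlap, each later one being higher, and it rose by 0.54 ± 0.12 at 6 h (adjusted p = 2.62e-05, DESeq2). Rpl13a, which regulators of translation can recruit away from the ribosome, was at 3440 and 3933, 4026 and 5337, and 4586 and 5464, and rose by 0.45 ± 0.18 (adjusted p = 0.0314). Rpl27 was at 319 and 277, 395 and 483, and 438 and 561, and rose by 0.75 ± 0.21 (adjusted p = 0.00157). Rpl26 rose by 0.35 ± 0.13 (adjusted p = 0.0164). With library totals as size factors Rpl7a rose by 0.29 and did not pass (adjusted p = 0.0612, DESeq2). In limma on log2(TPM + 1) and log2(TPM + 0.1) its change was 0.38 (adjusted p = 0.0605 and 0.0526). The call of Rpl7a held without any single library. Those of Rpl13a, Rpl26 and Rpl5 were lost without any 0 h or 6 h library, with adjusted p from 0.0539 to 0.333. With TMM factors in DESeq2 and with edgeR the adjusted p was 0.0512 and 0.0585 for Rpl13a and 0.0566 and 0.0556 for Rpl5. That of Rpl27 was lost without 0 h replicate 2 (0.0888) or 6 h replicate 2 (0.137). Near-identical copies took most reads of Rpl27, and with their counts added its change was 0.14 (adjusted p = 0.474). The members that fell were Rps27, Rps29, Rpl38, Rpl22 and Rpl3, which are taken up in turn.

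From 2 h to 6 h, 2 members rose (Rpl7l1 and Rpl12) and 7 fell (Rps29, Rpl22, Rplp1, Rpl3, Rps18, Rpl36a and Rps27rt; DESeq2), against 24.1% and 21.2% of all 16404 genes tested. The median of the members was -0.13, and that of all genes was -0.01. For genes with a mean normalised count of at least 1000 the median was 0.06, and 31.7% rose and 23.6% fell. Both 6 h libraries lay below both 2 h libraries for 35 members (all genes, 36.6%) and above them for 3 (all genes, 38.2%). One member passed 1 log2 unit in each direction, Rpl7l1 and Rps29, against 10.1% of all genes higher and 8.02% lower. With other processing, 17 members fell with library totals, 13 with edgeR and 12 with TMM factors, and 7 rose and 19 fell with the correction for GC content. The median depended on the 2 h libraries, being -0.20 without 2 h replicate 1 and 0.005 without 2 h replicate 2. The number that fell was 35 without 2 h replicate 1 and 3 without 6 h replicate 1, and the number that rose was 7 without 2 h replicate 2 and 1 without any other library. In 24 of the 83 members both 2 h libraries were above every 0 h and 6 h library, against 13.7% of the genes tested at 2 h.

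Rps29, a small zinc-binding protein of the small subunit (chromosome 12, 69157722 to 69159186, minus strand, GRCm38), fell most clearly at 6 h. Its normalised counts were 377 and 402 at 0 h, then 393 and 318 at 2 h, and 143 and 172 at 6 h. The 0 h and 2 h libraries overlapped, and both 6 h libraries were far below them. Rps29 fell by 1.31 ± 0.21 on the log2 scale from 0 h to 6 h (adjusted p = 8.14e-09, DESeq2) and by 1.17 ± 0.22 from 2 h to 6 h (adjusted p = 3.46e-07). In TPM it was at 299 and 372, 335 and 259, and 126 and 147. Both changes passed under every alternative and without any single library. The change at 2 h, -0.13 ± 0.20, did not pass (adjusted p = 0.729).

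Rpl38, another very small protein, of the large subunit, was at 1452 and 1134 at 0 h, then 1136 and 1128 at 2 h, and 713 and 1015 at 6 h. Both 6 h libraries were below both 0 h libraries. It fell by 0.58 ± 0.21 from 0 h to 6 h (adjusted p = 0.0162, DESeq2). Without 0 h replicate 1 the change was -0.39 with an adjusted p of 0.288, and without 6 h replicate 1 it was -0.35 with an adjusted p of 0.279. Without 2 h replicate 1 or 2 h replicate 2 it stayed at -0.58 with adjusted p of 0.0957 and 0.099.

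Rps29 and Rpl38 belong to the members with the shortest transcripts. Effective length, the number of positions at which a fragment of the library's size can start, was under 100 bases on average for 7 members, namely Rpl36, Rpl38, Rps21, Rps27, Rps27rt, Rps28 and Rps29. This class was formed after Rps29, Rpl38 and Rps27 were seen to fall at 6 h. The other 4 did not pass there, with log2 fold changes of 0.08 for Rpl36, -0.04 for Rps21, 0.08 for Rps27rt and -0.37 for Rps28. The difference between length and effective length, which reflects fragment size, was taken as its median over long genes only. This median was 302 and 314 bases at 0 h, then 319 and 314 at 2 h, and 322 and 318 at 6 h. For Rps29 the effective length was 88.8 and 76.7 bases at 0 h, then 72.5 and 77.4 at 2 h, and 69.9 and 73.2 at 6 h. The part of fragment size in these changes was not tested. Over all 83 members, effective length and the log2 fold change at 6 h had a rho of 0.29, as a description of genes that share the same libraries.

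Rps27, a zinc-binding protein of the small subunit (chromosome 3, 90212522 to 90213651, minus strand), could not be measured apart from Rps27rt, an intronless copy on chromosome 9 (114982366 to 114982739, minus strand). The genes are identical over 341 aligned bases. Their first 60 coding bases, read from the GENCODE M21 transcripts and written in lower case because no base differs, show this.
Rps27: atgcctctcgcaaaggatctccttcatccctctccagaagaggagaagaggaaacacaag
Rps27rt: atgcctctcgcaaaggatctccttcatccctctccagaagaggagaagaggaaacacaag
Rps27rt took nearly all of the reads, with expected counts of 3851 and 4108 at 0 h, then 4118 and 4457 at 2 h, and 3351 and 3423 at 6 h. Rps27 received 154 and 71.6, 55.6 and 59.3, and 42.7 and 30.4. Its TPM was 7536 in the first 0 h library, where its effective length was 1.28 bases, and was listed at 0 in the other libraries, where the effective length was 0. Its log2 fold change at 6 h was -1.33 ± 0.49 (adjusted p = 0.0169, DESeq2), and without 0 h replicate 1 it was -0.63 with an adjusted p of 0.463. It was -1.61 without 6 h replicate 1 (adjusted p = 0.0513) and -1.10 without 6 h replicate 2 (adjusted p = 0.196). Rps27rt rose by 0.34 ± 0.11 at 2 h (adjusted p = 0.00997) and fell by 0.26 ± 0.11 from 2 h to 6 h (adjusted p = 0.0397). The rise was lost without any 0 h or 6 h library (adjusted p from 0.103 to 0.282), and the fall without any library other than 2 h replicate 1 (0.12 to 0.324). Rps27l, a more distant relative induced by p53 in other settings, was at 528 and 575, 463 and 554, and 451 and 564 and passed in no comparison.

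**Figure D3:**
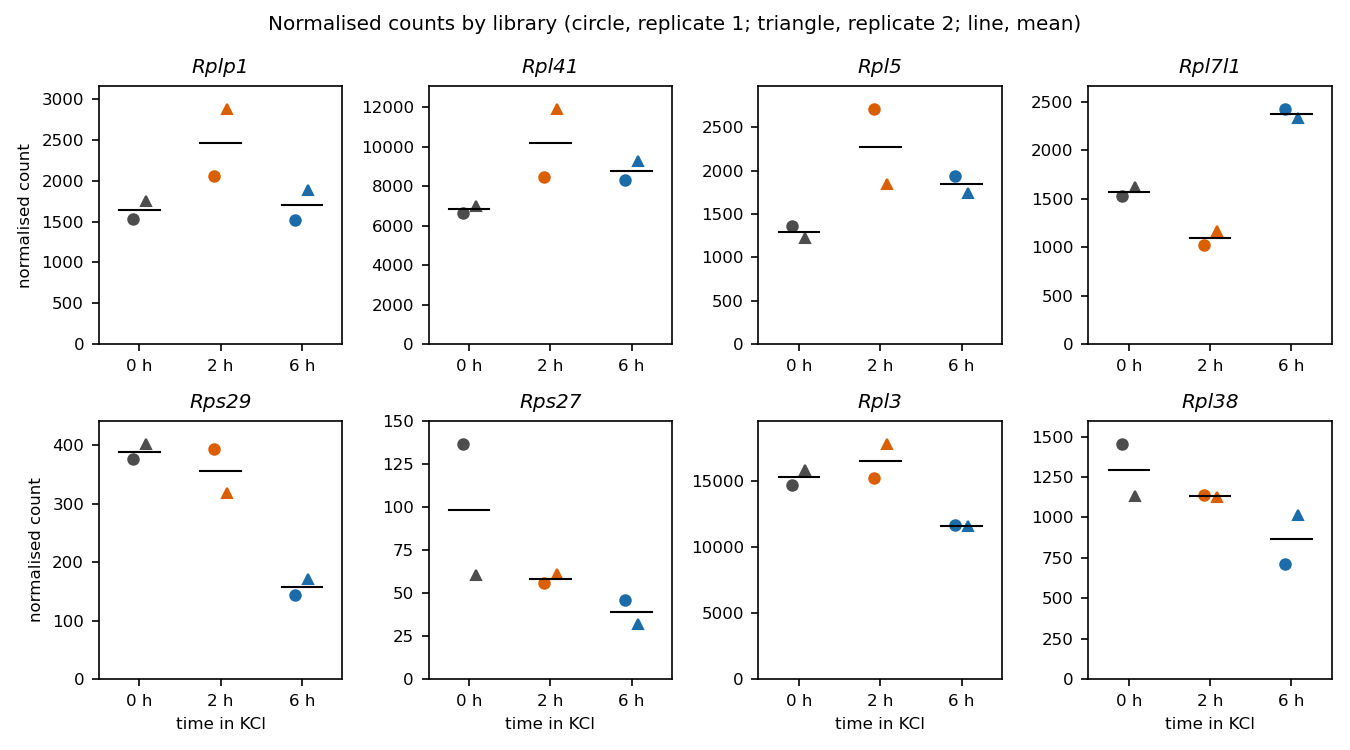
Normalised counts from 0 for 8 members in each library (circle, replicate 1; triangle, replicate 2; line, group mean of 2 libraries). Rplp1 is highest at 2 h in both libraries. Rpl41 and Rpl5 are highest at 2 h by group mean only, and their 2 h and 6 h libraries overlap. Rpl7l1 is lowest at 2 h and highest at 6 h, and Rps29 and Rpl3 are lowest at 6 h in both libraries.

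Rpl3, a protein close to the catalytic centre of the large subunit, was at 14718 and 15874 at 0 h, then 15246 and 17782 at 2 h, and 11651 and 11559 at 6 h. The 0 h and 2 h libraries overlapped and both 6 h libraries were lower. It fell by 0.40 ± 0.12 from 0 h (adjusted p = 0.00317, DESeq2) and by 0.51 ± 0.12 from 2 h (adjusted p = 0.000117). In the annotation Rpl3 overlaps Syngr1 on the opposite strand, with a mean of 8323 expected counts. The paper describes stranded libraries, but the use of strand in counting is not given in the sources used here. Reads of this overlap therefore cannot be assigned with certainty. Rps18 was at 8751 and 9068, 9557 and 10457, and 7759 and 7944 and fell by 0.35 ± 0.10 from 2 h to 6 h (adjusted p = 0.00192), without passing against 0 h (-0.18, adjusted p = 0.135). Rps18 overlaps Vps52 on the opposite strand, with a mean of 1300 expected counts. The call of Rpl3 against 0 h was lost without any 0 h or 6 h library, with adjusted p from 0.0544 to 0.167, and that against 2 h held. Without 6 h replicate 1 or 6 h replicate 2 the adjusted p of Rps18 was 0.132 or 0.0988.

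For Rpl22 the counts and the TPM went apart. Rpl22 is a large subunit protein that is not essential in mice and has a paralogue, Rpl22l1. Its normalised counts were 5614 and 5636 at 0 h, then 5807 and 6063 at 2 h, and 4083 and 3630 at 6 h. Both 6 h libraries were below all others, and the counts fell by 0.54 ± 0.11 from 0 h (adjusted p = 4.58e-06, DESeq2) and by 0.62 ± 0.11 from 2 h (adjusted p = 1.45e-07). The TPM was 519 and 559, 597 and 595, and 594 and 551, with a difference from 0 h to 6 h of 0.09 on the log2(TPM + 1) scale (limma, adjusted p = 0.446). Between the scales lies the effective length, an average over the transcripts of a gene weighted by their estimated abundance, which was 762 and 716 bases at 0 h, then 601 and 641 at 2 h, and 423 and 413 at 6 h. The GENCODE M21 annotation has protein-coding transcripts of 474, 2048 and 2051 bases for Rpl22. All its counts were whole numbers. Both libraries of each later group thus had a shorter effective length than those before, of which no test was made. Rps15a was a milder case, with effective lengths of 729 and 744, 763 and 699, and 606 and 587 bases and normalised counts of 8287 and 8553, 10220 and 10022, and 9045 and 8692. Its TPM was 801 and 817, 827 and 901, and 919 and 929, so that the counts were highest at 2 h and the TPM at 6 h.

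**Figure D4:**
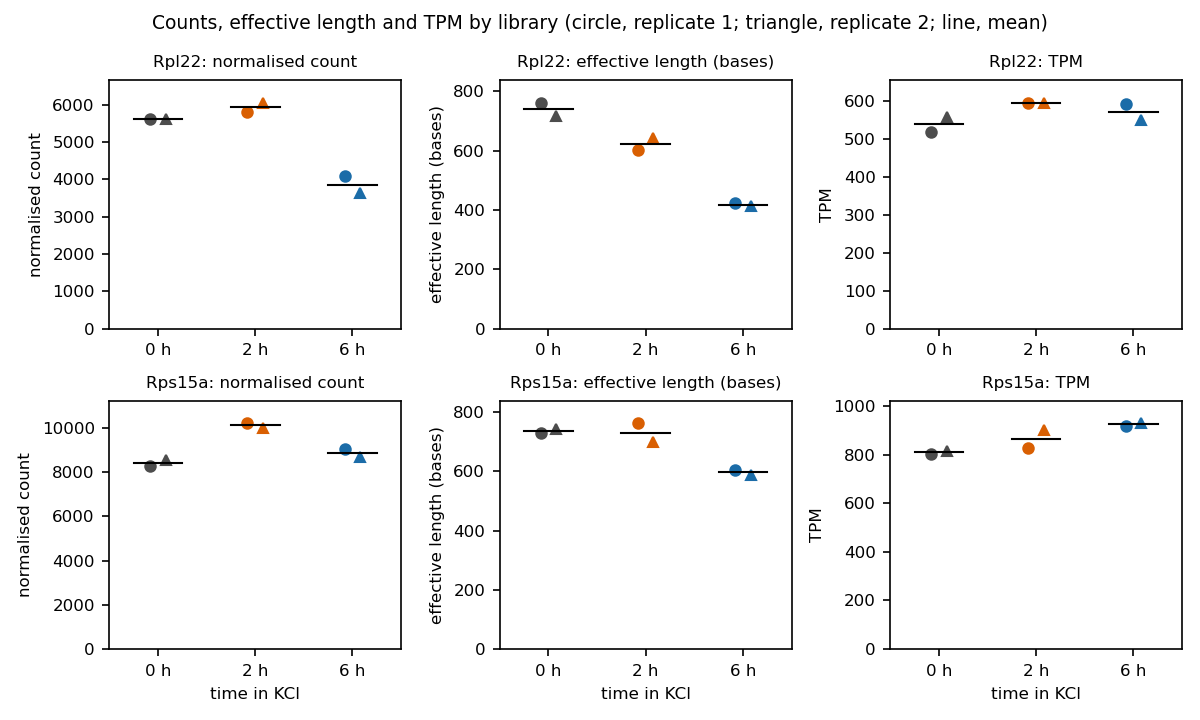
Normalised count, effective length in bases and TPM of Rpl22 (upper row) and Rps15a (lower row) in each library, with axes from 0 (circle, replicate 1; triangle, replicate 2; line, group mean of 2 libraries). The effective length of Rpl22 is 762 and 716 bases at 0 h and 423 and 413 bases at 6 h, while its TPM stays between 519 and 597.

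The paralogues include genes whose main sites of expression are other tissues. Rpl10l, known from testis, had no count in any library. Rpl3l, known from muscle, and Rpl39l, known from testis, had at most 6 normalised counts in any library and were left without an adjusted p. Rpl22l1 was at 897 and 821, 1141 and 971, and 1201 and 964, and Rpl36al at 1618 and 1633, 1838 and 1691, and 1618 and 1623. Neither passed in any comparison, while Rpl36a, which Rpl36al resembles, was at 2849 and 2808, 3111 and 3280, and 2630 and 2389 and fell by 0.35 ± 0.11 from 2 h to 6 h (adjusted p = 0.00509, DESeq2). That call did not pass without either 0 h or either 6 h library, with adjusted p from 0.0573 to 0.24. Rpl39 was at 2498 and 2282, 2465 and 2759, and 2154 and 2229 and Rpl7 at 14667 and 14504, 16322 and 18071, and 17232 and 15685, and neither passed in any comparison.

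Rpl7l1 (chromosome 17, 46773907 to 46782672, minus strand) was the member that fell at 2 h and then rose. This relative of Rpl7 is associated with ribosome assembly. Its normalised counts were 1529 and 1620 at 0 h, then 1020 and 1170 at 2 h, and 2422 and 2336 at 6 h, and all counts were whole numbers. The 3 groups did not overlap: both 2 h libraries were the lowest and both 6 h libraries the highest. It fell by 0.52 ± 0.13 at 2 h (adjusted p = 0.000357, DESeq2) and rose 1.51-fold from 0 h to 6 h (log2 0.60 ± 0.13, adjusted p = 1.21e-05) and 2.17-fold from 2 h to 6 h (1.12 ± 0.13, adjusted p = 5.25e-17). The changes to 6 h passed under every alternative and without any single library. The fall at 2 h was -0.56 without 0 h replicate 1 (adjusted p = 0.0554) and -0.47 without 0 h replicate 2 (adjusted p = 0.126). Members with other attachments showed small differences. Rps27a, made as a fusion with ubiquitin, was at 7550 and 8454, 8652 and 9472, and 8726 and 8595 and passed in no comparison, as did Rps19bp1 at 478 and 465, 483 and 566, and 501 and 478.

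Expected counts need not be whole, because reads that fit several transcripts are divided among them. Counts were non-whole, by more than 0.001, in all 6 libraries for 24 members, in 1 to 5 libraries for 32, and in none for 30. Among the members with whole counts, 27 were tested, of which 8 rose and 1 fell at 2 h with a median of 0.24. Among the 56 others 25 rose and none fell, with a median of 0.30. At 6 h against 0 h the numbers were 8 higher and 1 lower of 27 (median 0.18) and 13 higher and 4 lower of 56 (median 0.17). The medians were above 0 in both sets. A whole total can still hold reads divided among a gene's own transcripts.

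Ribosomal protein genes have left many processed copies in the genome. At 95% identity or more over at least 150 bases, 507 copies were found for 77 members, and 221 of them had a count. The match also takes in a gene with a product of its own, Uimc1, named after its values were seen, which shares 441 aligned bases with Rpl29 and held 355 of the 399 counts of that member's copies in the first 0 h library and 252 of 254 in the second 6 h library. Copies held between 7.02% and 7.78% of the expected counts of members and copies together. They held more than 50% for 6 members, namely Rpl12 (88.8%), Rpl27 (88.1%), Rpl5 (84%), Rps12 (68.4%), Rpl10a (63.9%) and Rpl10 (56.7%), and under 1% or none for 70. For Rpl12 and Rpl5 the copies Gm10275 and Gm15500 match the member without a mismatch over 634 and 1018 bases, so that the split between them is uncertain. The same holds for Rpl10 and Rpl10a, whose copies Rpl10-ps3 and Rpl10a-ps1 match without a mismatch over 740 and 654 bases. The share given to copies of Rpl12 was 88.3% and 89.6% at 0 h, then 91.9% and 91.7% at 2 h, and 83.5% and 85.8% at 6 h.

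**Figure D5:**
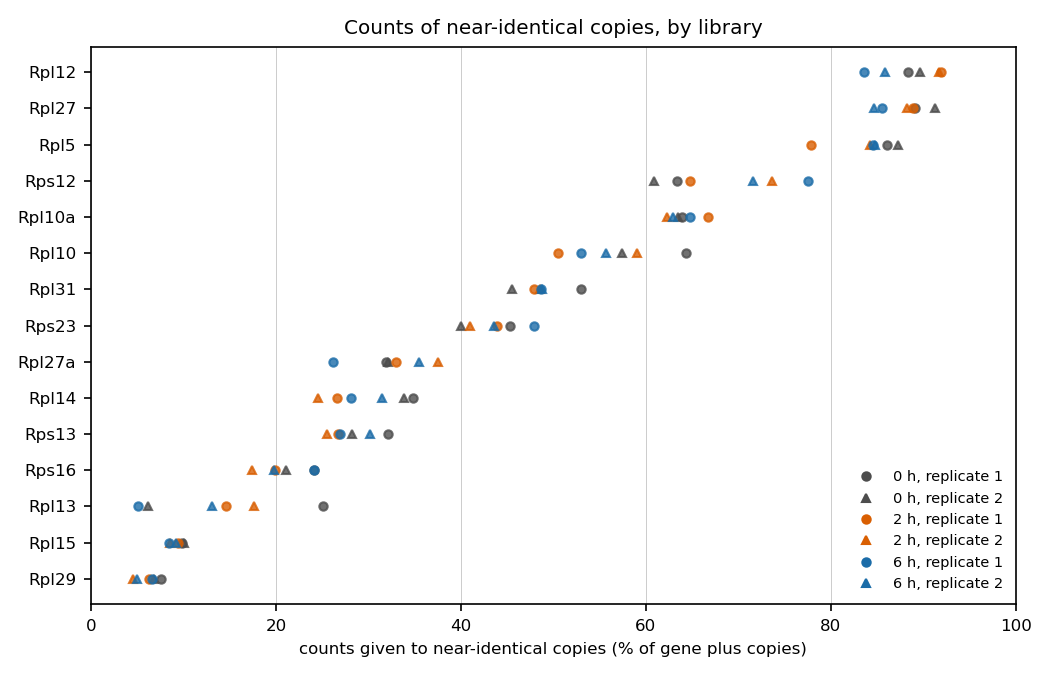
Share of expected counts given to near-identical copies, as a percentage of the counts of the gene and its copies, for the 15 members in which it was over 5% on average, with 1 symbol per library (grey, 0 h; orange, 2 h; blue, 6 h; circle, replicate 1; triangle, replicate 2). Rpl12, Rpl27 and Rpl5 give over 77% of these counts to copies in every library.

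Adding the counts of the copies to their member changed several calls of single genes. Pooling was chosen after seeing the data, and under it 32 members rose and 1 fell at 2 h, of which 31 had risen before. Rpl12 was at 257 and 251 normalised counts at 0 h, then 186 and 263 at 2 h, and 361 and 340 at 6 h, and rose by 0.64 ± 0.23 from 2 h to 6 h (adjusted p = 0.0122, DESeq2). This call was lost without any library other than 2 h replicate 2, with adjusted p from 0.055 to 0.175. With copies it was at 2200 and 2414, 2293 and 3146, and 2189 and 2392, the 6 h libraries overlapped the 0 h libraries, and the change from 2 h was -0.25 ± 0.18 (adjusted p = 0.268). Rpl5 with copies rose by 0.30 ± 0.10 at 2 h (adjusted p = 0.0131) and by 0.31 ± 0.10 at 6 h (adjusted p = 0.00644), smaller changes than without them. For Rpl27 the change with copies was 0.34 ± 0.15 at 2 h (adjusted p = 0.078) and 0.14 ± 0.15 at 6 h (adjusted p = 0.474), so that neither call held. Rps12, which had not passed at 2 h alone (0.08, adjusted p = 0.864), rose by 0.39 ± 0.15 with its copies (adjusted p = 0.0379). Rpl10 with copies rose by 0.34 ± 0.11 at 2 h (adjusted p = 0.00881) and fell by 0.27 ± 0.11 from 2 h to 6 h (adjusted p = 0.0349).

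Further genes of the pathway were read as lists, against the shares of all genes given above for each comparison. Fau and Rack1 encode ribosome components whose names fall outside the family. Fau, a ubiquitin-like fusion with a small subunit protein, was at 175 and 156 at 0 h, then 223 and 318 at 2 h, and 228 and 253 at 6 h, and rose by 0.71 ± 0.25 at 2 h (adjusted p = 0.0214, DESeq2). Rack1, a scaffold on the small subunit, rose by 0.36 ± 0.13 at 2 h (adjusted p = 0.0253) and by 0.45 ± 0.13 at 6 h (adjusted p = 0.00167). The calls of Fau and Rack1 were lost without any 0 h or 6 h library, and that of Fau also without 2 h replicate 2, with adjusted p from 0.0525 to 0.339. Of 17 translation factors and other genes with TOP mRNAs, 7 rose and none fell at 2 h, and 7 rose and none fell at 6 h, among them Nap1l1 (0.89 at 6 h, adjusted p = 8.46e-09) and the elongation factor gene Eef1d (0.64, adjusted p = 7.12e-05). From 2 h to 6 h, 2 of these rose and 1 fell.

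Genes of ribosome biogenesis, which process rRNA and assemble subunits, were read in the same comparisons. Of 50 such genes 7 rose and 9 fell at 2 h (14% and 18%, against 12.3% and 14.2% of all genes, median -0.11). From 0 h to 6 h 28 rose and 5 fell (56% and 10%, against 23.7% and 21.7%, median 0.35), and from 2 h to 6 h 27 rose and 3 fell (54% and 6%, against 24.1% and 21.2%, median 0.40). Beside these stand the medians of the members, 0.29, 0.18 and -0.13, and the difference between the lists was not tested. Taf1d, a subunit of a factor for RNA polymerase I, rose by 1.44 at 6 h (adjusted p = 6.23e-11, DESeq2), and Gnl3, a nucleolar GTPase, by 1.14 (adjusted p = 6.79e-19). Ubtf, a transcription factor of rRNA genes, fell by 1.02 (adjusted p = 3.9e-15) and Wdr12, an assembly factor, by 0.61 (adjusted p = 0.000162), a call lost without 0 h replicate 1 (0.0613) or 6 h replicate 2 (0.0511). Of 28 genes of TOR signalling and TOP regulation, 7 rose and 5 fell at 2 h, 11 rose and 6 fell at 6 h, and 9 rose and 5 fell from 2 h to 6 h. They included Sesn2, an inhibitor of TOR complex signalling (1.48 at 6 h, adjusted p = 3.18e-17), and Eef2k, the kinase of elongation factor 2 (-1.79, adjusted p = 1.59e-44).

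Genes of mitochondrial ribosomal proteins, the nearest family by function, were added after the values were seen and are given as a description. Of 77 tested none rose and 11 fell at 2 h (14.3% lower, against 14.2% of all genes). From 0 h to 6 h 5 rose and 34 fell (6.49% and 44.2%, against 23.7% and 21.7%), and from 2 h to 6 h 13 rose and 29 fell (16.9% and 37.7%, against 24.1% and 21.2%). The medians were -0.11, -0.33 and -0.27. Markers of cell types were read against the same shares of all genes, with 12.3% higher at 2 h. Of 12 neuronal markers 7 rose and 1 fell at 2 h (58.3% and 8.33%), and 7 rose and 2 fell at 6 h (58.3% and 16.7%). From 2 h to 6 h, 3 rose and 3 fell (25% each). None of 17 glial markers passed at 2 h, and 3 rose and 5 fell at 6 h (17.65% and 29.4%). From 2 h to 6 h, 3 of them rose and 3 fell (17.65% each). Of 10 progenitor and dividing cell markers 3 rose at 2 h (30%), and 3 rose and 2 fell at 6 h (30% and 20%). From 2 h to 6 h, 2 of these rose and 3 fell (20% and 30%), and the medians were 0.28, 0.18 and -0.06. Of 6 vascular markers tested 1 rose and 1 fell at 2 h, 2 rose and 1 fell at 6 h, and none passed from 2 h to 6 h. The part of these marker changes in those of the ribosomal protein genes was not tested.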

How the data were processed

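Poly(A) RNA of 6 libraries was profiled by paired-end sequencing. Per the labels, the authors used RSEM 1.3.0 with Bowtie2 2.2.9 and mm10. The authors deposited expected counts (read numbers estimated per gene, not normalized), TPM values, FPKM values (not used) and effective lengths. The paper describes the libraries as stranded. The annotation release and the use of strand in counting are not given in the sources used here. Symbols, positions and transcripts came from GENCODE M21 (GRCm38). Members and lists were chosen with earlier results of these data known.

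Expected counts were rounded and fitted over all 6 libraries in DESeq2 1.42.0 (R 4.3.3), with group as the only term, Wald tests, size factors by the median of ratios, and p-values adjusted by Benjamini-Hochberg across all genes that passed independent filtering. Normalised counts are divided by these size factors. Where adjusted p did not exceed 0.05 a gene was said to rise or fall, and ± is the standard error. edgeR 4.0.16, limma 3.58.1 on log2(TPM + 1) and log2(TPM + 0.1), other scalings, a GC correction, a replicate block and each library left out were alternatives. Copies were found with blastn 2.17.0. Named members are those beyond 1 log2 unit, the 5 highest and 5 lowest passing members of each comparison whose mean count reached 100, the 5 highest by TPM, the P stalk, paralogues with the genes they resemble, Rps27a, Rps19bp1, Rps6 and Rps24. Of each list, up to 2 genes per direction at 6 h could be named. The class of genes averaging 1000 counts or more, that of short transcripts, and the mitochondrial list were chosen after seeing the data. No molecular identifiers were used, and counts limit precision only through counting error. Values of some single genes are not reported here, and counts over the family include all members.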

Additional observations from a re-analysis of the deposited data

How the results depend on the processing

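The median of the members relative to that of all genes kept its sign under all alternatives run. Leaving out 1 library aside, it lay between 0.167 and 0.286 at 2 h, between 0.111 (limma on log2(TPM + 1)) and 0.217 at 6 h, and between -0.135 and -0.087 for 6 h against 2 h. Of 89 results for single named genes, 34 passed under every setting and 2 changed sign: Rpl22 at 6 h was 0.086 in both limma fits on TPM, and Rpl12 from 2 h to 6 h was -0.247 with copies pooled, an alternative chosen after seeing the data. The causes were not tested.

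Counts over the family moved more. From 2 h to 6 h, 13 members fell with edgeR and 12 with TMM factors in DESeq2. With library totals, 1 member rose at 2 h (median 0.126), 2 rose and 13 fell at 6 h (median -0.062, a reversal), and 17 fell from 2 h to 6 h. The GC correction gave 59 higher at 2 h, 40 higher at 6 h, and 7 higher and 19 lower from 2 h to 6 h. Limma on log2(TPM + 1) gave 0 higher at 2 h (median 0.12), 1 higher and 3 lower at 6 h, with 1 beyond 1 log2 unit lower (median 0.086), and 1 higher and 2 lower from 2 h to 6 h. With log2(TPM + 0.1) the counts were the same and the medians were 0.12 and 0.086. With copies pooled, 1 member rose from 2 h to 6 h.

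Replicate numbers did not pair the libraries: correlations of deviations were 0.250, -0.014 and 0.145 for the 3 pairs of groups. With the replicate block 36 rose and 1 fell at 2 h, 24 and 5 at 6 h, and 2 and 10 from 2 h to 6 h. Among the named members, the 2 h calls of Rps4x, Rpl30, Rps15a and Rpl27 had adjusted p of 0.0863, 0.0618, 0.0523 and 0.0519 with the block (DESeq2), and the fall of Rps27rt from 2 h to 6 h had 0.0564. The replicate block with GC correction gave 59 higher at 2 h, 39 higher at 6 h, and 6 higher and 21 lower from 2 h to 6 h.

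Without each library in turn, 1 to 60 members rose and 0 to 1 fell at 2 h, with 0 to 1 beyond 1 log2 unit higher and medians from 0.174 to 0.367, or 0.197 to 0.383 above all genes. At 6 h, 2 to 43 rose and 2 to 5 fell, 1 to 2 beyond 1 unit lower, with medians from 0.129 to 0.264, or 0.114 to 0.256 above all genes. From 2 h to 6 h, 1 to 7 rose and 3 to 35 fell, with medians from -0.199 to 0.005, the last without 2 h replicate 2 and a reversal, or -0.22 to -0.023 against all genes. Such fits leave 1 library in a group, assumed to vary like the others. The part of counting error in the spread between libraries was not tested.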
